A study of Mus musculus with 22 samples.

Results

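The amyloid-degrading peptidases described here are 5 genes, Mme, Ide, Ece1, Ece2 and Ace, out of 22485 genes that the array's probe annotation names. They were chosen by symbol, which found 7 of the 33026 probes with a single gene symbol: a pair each for Mme and Ece2, and 1 probe each for Ide, Ece1 and Ace. All 7 probes had values and none was filtered out. Where a gene had a pair of probes, the one with the higher mean represented it, and the remaining probe is given beside it. The samples were astrocytes and microglia sorted from the cortex of C57BL/6 mice aged 15 to 18 months. Astrocytes came from 4 APPswe/PS1dE9 (APP/PS1) and 4 wild-type (WT) samples, sorted as GLT1-positive, CD11b-negative cells. Microglia came from 7 APP/PS1 and 7 WT samples, sorted as positive for CD11b and CD45. Myelin, O4-positive cells and dead cells were removed from all 4 groups, and the WT animals were littermates without the transgenes. APP/PS1 mice express mutant amyloid precursor protein and mutant presenilin from prion promoter transgenes, so the transgenes are not limited to glia and every cell of the animal carries them.

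Amyloid-beta is a short peptide that is removed from brain both by uptake into cells and by cleavage outside and inside them. Mme (neprilysin), Ece1 and Ece2 are membrane zinc peptidases of the M13 family. Neprilysin faces the cell surface and also cleaves neuropeptides such as enkephalins, substance P and natriuretic peptides. The endothelin-converting enzymes mature endothelin precursors, and much of their action on amyloid-beta takes place inside acidic compartments. Ide, the insulin-degrading enzyme, is a largely cytosolic M16 zinc peptidase that also degrades insulin, amylin and glucagon. Ace, the angiotensin-converting enzyme of the M2 family, forms angiotensin II and breaks down bradykinin, and is known from endothelium and choroid plexus.

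The samples were hybridised to 11 Agilent arrays with a pair of dyes, and the authors deposited single-channel log2 values. Samples with the same replicate number and cell type shared an array, so a genotype difference could be taken within an array. The column medians lay between 6.24 and 6.26 and the highest value was 17.89. The number of arrays limits the precision of every value. Where a probe was blank on an array, its values elsewhere were low (medians of 2.81 to 3.35), and levels in that range are at the dim end of the measurement. All 4 astrocyte arrays were on a slide of their own, while microglia replicates 2 to 5 were on slide 1 and replicates 1, 6 and 7 on slide 2. Microglia markers were lower in astrocytes than in microglia for 13 of 14 tested genes in WT, and astrocyte markers were higher for 14 of 14. Endothelial markers were also higher in WT astrocyte samples, for 11 of 12 with 1 lower (median 5.17). Mural markers were higher there for 9 of 10 with 0 lower (median 5.12). Their summed levels (log2) in WT astrocytes were 17.14 to 18.19 and 14.31 to 17.02, against 19.28 to 19.46 for astrocyte markers. Between the cell types in WT, 53.3% of all genes differed. The WT microglia sample of replicate 3 stood apart in lymphocyte and granulocyte markers, with a mean over the list of 12.13 against 7.31 to 8.19 in the other WT microglia samples and 7.13 to 8.58 in the APP/PS1 ones. The Y-linked gene Eif2s3y differed between the channels of 3 arrays, those of astrocyte replicates 1 and 3 and microglia replicate 1, where the APP/PS1 sample had 9.64, 9.63 and 10.54 and the WT sample 4.58, 4.54 and 4.47. Sex is not in the labels used here, and the genotype calls below that are lost without these arrays are named with the value on the remaining, matched arrays. Between the cell types, Eif2s3y was 3.76 to 4.58 in WT astrocytes and 10.03 to 10.15 in WT microglia replicates 3, 5 and 6. The other WT microglia samples had 1.43 to 4.47, and the cell type differences were not matched for this gene.

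The pair of probes annotated as Ece2 measured different transcripts by the transcript accessions in the probe annotation. The brighter one (mean 8.69 over the 22 samples) carries the accession that RefSeq assigns to Eef1akmt4, which encodes a lysine methyltransferase. The dimmer one (mean 4.97) carries that of Ece2 itself. In GRCm38.p6 Eef1akmt4 lies at chr16:20611601-20618869 and Ece2 at chr16:20629851-20645915, on the same strand, with starts 18250 bases apart. RefSeq also lists a read-through gene, Eef1akmt4-ece2 (chr16:20611601-20645915), that begins at the first start and ends with Ece2. Eef1akmt4 ends 10982 bases before Ece2 starts, so the names belong to separate genes, and the read-through gene spans both. Because these genes begin at different starts, the windows around both starts (250 bases before to 50 after, RefSeq, GRCm38.p6, plus strand, chr16:20611351-20611650 and chr16:20629601-20629900) are printed. Capitals mark matches on either strand to 3 motifs, with no overlaps among those found. The TATA box was searched as TATAAA. The motif known as the CAAT box was searched as CCAAT, and the GC box as GGGCGG.
Eef1akmt4: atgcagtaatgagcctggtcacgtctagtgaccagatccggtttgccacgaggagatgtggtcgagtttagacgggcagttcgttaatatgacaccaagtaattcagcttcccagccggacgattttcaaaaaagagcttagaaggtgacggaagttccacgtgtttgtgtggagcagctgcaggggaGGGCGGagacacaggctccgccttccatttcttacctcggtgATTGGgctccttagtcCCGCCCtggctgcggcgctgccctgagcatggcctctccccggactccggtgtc
Ece2: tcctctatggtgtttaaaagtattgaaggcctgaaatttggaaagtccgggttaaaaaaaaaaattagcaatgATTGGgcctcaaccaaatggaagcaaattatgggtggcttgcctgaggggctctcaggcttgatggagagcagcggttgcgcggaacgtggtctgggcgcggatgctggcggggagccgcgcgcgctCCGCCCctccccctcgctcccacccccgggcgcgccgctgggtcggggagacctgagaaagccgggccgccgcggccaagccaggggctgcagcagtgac
The Eef1akmt4 window held 18 CpG dinucleotides, 1 CAAT box and 2 GC boxes, and the Ece2 window 23 CpG dinucleotides, 1 CAAT box and 1 GC box. Neither held a TATA box. Among 32544 promoter windows of the same length, 13.6% held a TATA box, 37.4% a CAAT box and 35.9% a GC box, by these letters. The other members lie at chr3:63295211-63383713 (Mme), chr4:137862237-137965229 (Ece1), chr11:105967948-105989964 (Ace) and chr19:37268743-37334544 (Ide). Below, the probes are called the Eef1akmt4-accession probe and the Ece2-accession probe, and the first stands for Ece2 wherever all 5 genes are counted.

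Astrocytes and microglia differed in most of these genes. Ece1 and Ide were higher in astrocytes by 4.03 and 2.48 log2 units in WT, and Mme, at dim levels, by 1.00, while Ace did not differ beyond the test. The probes annotated as Ece2 went opposite ways. Of the 5 genes, 3 were higher (Mme among them) and 1 lower in astrocytes in either genotype (limma, Benjamini-Hochberg adjusted p under 0.05), against 53.3% of all genes differing in WT and 53.9% in APP/PS1. The median of the 5 differences was 1.00 in WT and 1.67 in APP/PS1, beside 0.34 and 0.33 over all genes tested. The part of the endothelial and mural marker levels given above in these differences was not tested.

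Ece1 had log2 values of 9.29, 9.18, 9.62 and 8.61 in WT astrocytes, and 4.25, 5.33 and 5.76 as lowest, median and highest of 7 WT microglia. No WT astrocyte sample came near any microglia sample. The difference was 4.03 ± 0.30 (SE), a ratio of 16.4, with an adjusted p of 3.48e-10 in limma. In APP/PS1 the difference was 3.80 ± 0.30 (adjusted p = 1.06e-09).

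Ide had 11.17, 11.50, 11.11 and 10.71 in WT astrocytes, against 7.89, 8.45 and 9.19 as lowest, median and highest in WT microglia. These groups did not overlap either. The difference was 2.48 ± 0.23 in WT (limma adjusted p = 8.28e-09), a ratio of 5.59, and 1.85 ± 0.23 in APP/PS1 (adjusted p = 6.87e-07). Within microglia, Ide followed the slide: it averaged 8.36 in the 8 samples of slide 1 and 9.09 in the 6 of slide 2, with no overlap. Ece1 did so as well, at 4.98 and 5.79. Because slide 3 held the astrocyte arrays and no other, an effect of the slide and one of the cell type cannot be told apart. With slide as a random block Ece1 and Ide still passed, but no slide held both cell types, so that fit cannot separate them either.

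Mme was among the dim genes. Its brighter probe had 4.43, 4.48, 3.82 and 4.43 in WT astrocytes, and 2.31, 3.53 and 4.25 as lowest, median and highest of 6 WT microglia, with the array of microglia replicate 4 blank. From 4.15% to 26.9% of probes were dimmer than it in WT microglia, and 20.7% to 30.2% in WT astrocytes. The WT groups overlapped. The median of 6 APP/PS1 microglia samples, 3.31, lay within the range of values given above for probes blank elsewhere, so the level there is close to the lowest that was measured, and the size of the differences from it is uncertain. The difference was 1.00 ± 0.34 in WT (limma adjusted p = 0.0188) and 1.67 ± 0.34 in APP/PS1 (adjusted p = 0.000372). With slide as a random block neither passed (adjusted p = 0.298 and 0.0635), and without microglia replicate 2, astrocyte replicate 2 or astrocyte replicate 4 the WT difference did not pass (adjusted p = 0.0573, 0.0563 and 0.0644).

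The dimmer Mme probe had 3.95, 3.49, 3.53 and 4.79 in WT astrocytes and 1.92 to 3.53 in 5 WT microglia samples. Its difference was 1.21 ± 0.54 in WT (limma adjusted p = 0.0713 over all probes) and 1.50 ± 0.54 in APP/PS1 (adjusted p = 0.0271). Over all probes, 53.9% differed between the cell types in WT and 54.6% in APP/PS1.

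The Ece2-accession probe had 6.64, 6.78, 6.11 and 6.75 in WT astrocytes, against 3.74, 4.15 and 4.88 as lowest, median and highest of 6 WT microglia. It was higher in astrocytes by 2.37 ± 0.38 in WT and 2.50 ± 0.38 in APP/PS1 (limma adjusted p = 3.35e-05 and 1.95e-05 over all probes). The Eef1akmt4-accession probe had 7.91, 8.10, 7.85 and 7.71 in WT astrocytes, against 8.96, 9.26 and 9.37 in 7 WT microglia. It was lower in astrocytes, with differences of -1.30 ± 0.15 in WT and -1.86 ± 0.15 in APP/PS1 (limma adjusted p = 2.87e-07 and 1.69e-09). Both probes separated the cell types without overlap, in opposite directions, so a cell type difference for Ece2 depends on which probe stands for it. Their mean gave 0.18 in WT and -0.045 in APP/PS1 (adjusted p = 0.752 and 0.939).

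Ace had 7.53, 6.75, 6.33 and 6.66 in WT astrocytes, and 6.87, 7.25 and 7.45 as lowest, median and highest in WT microglia. The groups overlapped, and the difference of -0.35 ± 0.19 (95% interval -0.74 to 0.03) did not pass in limma (adjusted p = 0.118). In APP/PS1 it was -0.11 ± 0.19 (adjusted p = 0.642). The WT astrocyte sample of replicate 1 was the highest of its group, and without that array the WT difference was -0.58 (adjusted p = 0.00991).

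**Figure D1:**
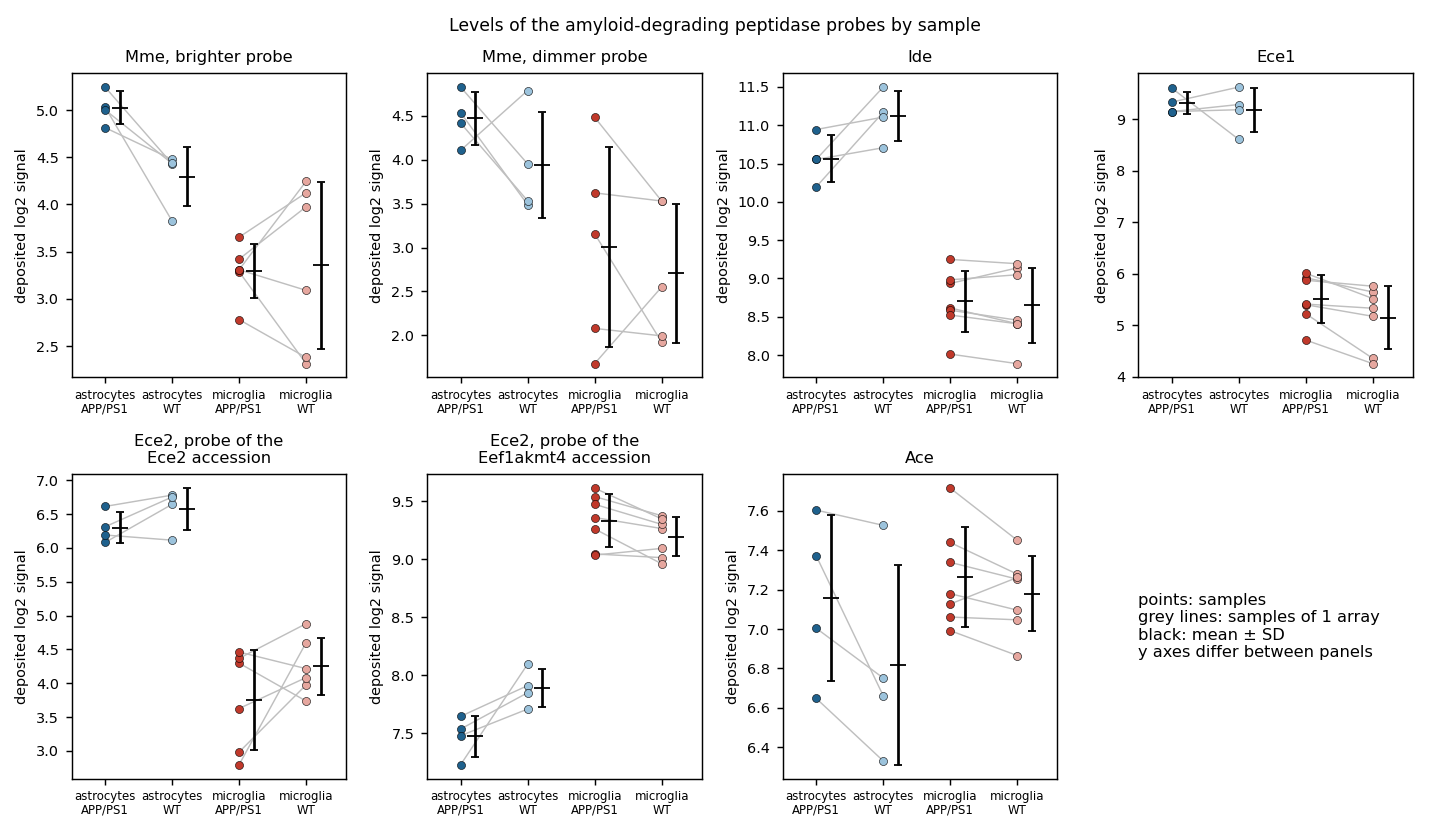
Deposited log2 signal (y axis, with its own range in each panel) of the 7 probes in astrocytes and microglia of APP/PS1 and WT mice. Points are samples, grey lines join samples of 1 array, and black bars are mean ± SD. WT astrocytes lie at 8.61 to 9.62 for Ece1 and WT microglia at 4.25 to 5.76, and the panels of the probes annotated as Ece2 run in opposite directions.

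In astrocytes, 4 of the 5 genes passed between APP/PS1 and WT, against 33.4% of all genes tested (7516 genes). Mme and Ace were higher in APP/PS1 by 0.73 and 0.34 log2 units, Ide was lower by 0.56, and the Eef1akmt4-accession probe that stands for Ece2 was lower by 0.42. With genes named by accession, the Ece2 probe did not pass, which leaves 3 of 5. The differences were under 1 log2 unit, and the median of the 5 was 0.13, beside -0.07 over all genes. None of the 4 calls passed in the fit that left out the array block (adjusted p = 0.223 for Mme, 0.249 for Ide, 0.117 for the Ece2 symbol and 0.445 for Ace) or when astrocyte arrays were fitted alone (adjusted p = 0.0688, 0.0508, 0.142 and 0.160 in the same order).

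Mme had 5.24, 4.81, 5.03 and 5.00 in APP/PS1 astrocytes, and 4.43, 4.48, 3.82 and 4.43 in WT astrocytes. Every APP/PS1 sample was above every WT sample. The differences within arrays were 0.81, 0.34, 1.21 and 0.57, and limma gave 0.73 ± 0.24 (adjusted p = 0.0417), a ratio of 1.66. The exact two-sided sign-flip permutation test over 4 arrays gave p = 0.125, the smallest it allows. The call did not hold without astrocyte replicate 1, 2 or 3 (adjusted p = 0.174, 0.108 and 0.124), without microglia replicate 1, 3 or 6 (adjusted p = 0.0557, 0.0559 and 0.0553), or on the astrocyte arrays matched in Eif2s3y, replicates 2 and 4, where the difference was 0.45 (adjusted p = 0.435).

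The dimmer Mme probe had 4.83, 4.54, 4.42 and 4.11 in APP/PS1 astrocytes, and 3.95, 3.49, 3.53 and 4.79 in WT astrocytes. It was higher in APP/PS1 on 3 of 4 arrays and lower on that of replicate 4. Its difference of 0.53 ± 0.37 (95% interval -0.31 to 1.38) did not pass in limma (adjusted p = 0.318), where 32.4% of all probes did.

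Ide had 10.19, 10.55, 10.94 and 10.55 in APP/PS1 astrocytes, and 11.17, 11.50, 11.11 and 10.71 in WT astrocytes. It was lower in APP/PS1 on 4 of 4 arrays, by 0.97 and 0.94 in replicates 1 and 2 and by 0.16 and 0.15 in replicates 3 and 4, while the groups overlapped. The fitted difference was -0.56 ± 0.12 (limma adjusted p = 0.0064), a ratio of 0.679. That SE rests on a spread shared with microglia. The within-array differences had an SD of 0.46 over 4 astrocyte arrays and 0.14 over 7 microglia arrays. The exact two-sided sign-flip permutation test over the astrocyte arrays gave p = 0.125, the smallest it allows. Of the 11 fits that each left out 1 array, all passed (adjusted p up to 0.0399), each with the shared spread. On the arrays matched in Eif2s3y the difference was -0.55 (adjusted p = 0.0695).

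Ace had 7.60, 7.00, 6.65 and 7.37 in APP/PS1 astrocytes, and 7.53, 6.75, 6.33 and 6.66 in WT astrocytes. The groups overlapped, yet the APP/PS1 sample was higher on each of the 4 arrays, by 0.08, 0.25, 0.32 and 0.71. Limma gave 0.34 ± 0.10 (adjusted p = 0.0207). The call did not hold without astrocyte replicate 2 (0.34, adjusted p = 0.0662) or 4 (0.23, adjusted p = 0.0991). On the matched arrays it was 0.48 (adjusted p = 0.0492).

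The Eef1akmt4-accession probe had 7.65, 7.23, 7.54 and 7.48 in APP/PS1 astrocytes, and 7.91, 8.10, 7.85 and 7.71 in WT astrocytes. Every APP/PS1 sample was below every WT sample. The difference was -0.42 ± 0.11 (limma adjusted p = 0.0176), but -0.25 without replicate 2 (adjusted p = 0.0729) and -0.55 on the arrays matched in Eif2s3y (adjusted p = 0.0715). The Ece2-accession probe had 6.08, 6.61, 6.19 and 6.31 in APP/PS1 astrocytes, and 6.64, 6.78, 6.11 and 6.75 in WT astrocytes. It was lower on 3 of 4 arrays and its difference of -0.27 ± 0.31 (95% interval -0.98 to 0.43) did not pass in limma (adjusted p = 0.555).

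Ece1 had 9.15, 9.15, 9.33 and 9.60 in APP/PS1 astrocytes, and 9.29, 9.18, 9.62 and 8.61 in WT astrocytes. Replicate 4 alone was higher in APP/PS1, by 1.00, and the other 3 arrays were lower by 0.04 to 0.29. The difference of 0.13 ± 0.20 (95% interval -0.32 to 0.59) did not pass in limma (adjusted p = 0.665), and without replicate 4 it was -0.18 (adjusted p = 0.388). On the arrays matched in Eif2s3y, replicates 2 and 4, it was 0.48 (adjusted p = 0.280).

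**Figure D2:**
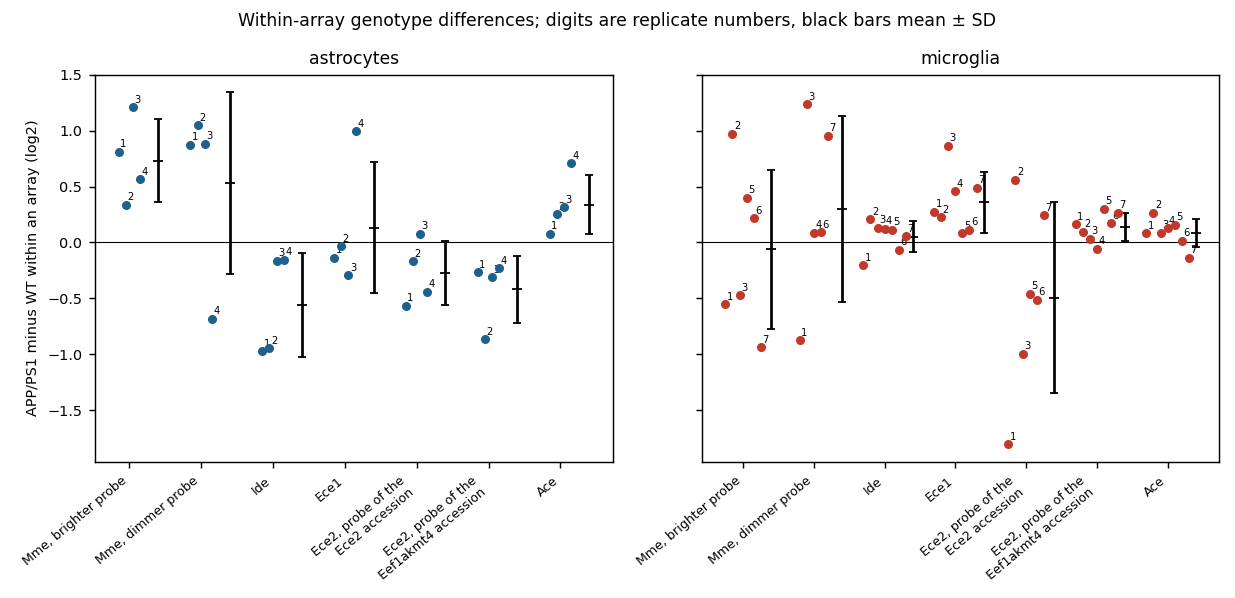
APP/PS1 minus WT differences (log2, y axis) of each probe within an array, in astrocytes (left) and microglia (right). Points are arrays with their replicate number, and black bars are mean ± SD. Ide lies below 0 on all 4 astrocyte arrays (-0.97 to -0.15), and Ece1 lies above 0 on all 7 microglia arrays (0.08 to 0.87).

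Cell type marker levels in the astrocyte samples also differed by genotype on the same arrays, where 33.4% of all genes passed. Of 14 tested astrocyte markers, 13 were lower and 1 higher in APP/PS1, with medians of -2.15, -1.55, -0.39 and -1.44 on replicates 1 to 4, and their summed level (log2) was 17.13 to 18.92 in APP/PS1 and 19.28 to 19.46 in WT astrocytes. Of 12 endothelial markers 10 were higher, with medians of 0.28, 1.49, 1.00 and 1.80 and a summed level of 18.20 to 18.88 in APP/PS1 against 17.14 to 18.19 in WT. Of 10 mural markers 8 were higher, with medians of 1.86, 3.49, 2.06 and 0.80 and a summed level of 16.65 to 18.52 in APP/PS1 against 14.31 to 17.02 in WT. Choroid plexus, ependymal and fibroblast markers were higher for 3 of 10, with medians of 0.01, 0.04, 0.45 and 1.71. Their summed level was 12.20 to 12.94 in APP/PS1 and 11.61 to 12.16 in WT. Neuron markers were higher for 1 of 12 and lower for 3, and oligodendrocyte markers higher for 2 of 9 and lower for 3. Perivascular macrophage and monocyte markers were higher for 2 of 8. Lymphocyte and granulocyte markers were higher for 1 of 9 and lower for 1. Of 14 microglia markers 11 were higher and 2 lower, with medians of 3.20, 1.53, 1.46 and 0.12, while their summed level was 14.36 to 15.60 in APP/PS1 and 14.86 to 15.84 in WT. The 2 lower ones, Siglech and Itgam, hardly separated the cell types, with WT differences (astrocytes minus microglia) of -0.68 and -0.44, against -9.47 to -5.49 for the other 12. Without this pair, left out after their values were seen, the summed level of 11 genes was 12.24 to 15.10 in APP/PS1 and 10.35 to 12.14 in WT astrocytes, with no overlap. The genes Siglech and Csf1r, the brightest of that list, had medians of 13.41 and 10.98 in APP/PS1 and 14.22 and 9.78 in WT astrocytes. The log2 values alone do not show which listed markers were above background. The part of these shifts in the differences of Mme, Ide, Ace and the Eef1akmt4-accession probe was not tested. In sorted bulk samples, fewer cells of a type and less RNA per cell cannot be told apart.

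**Figure D3:**
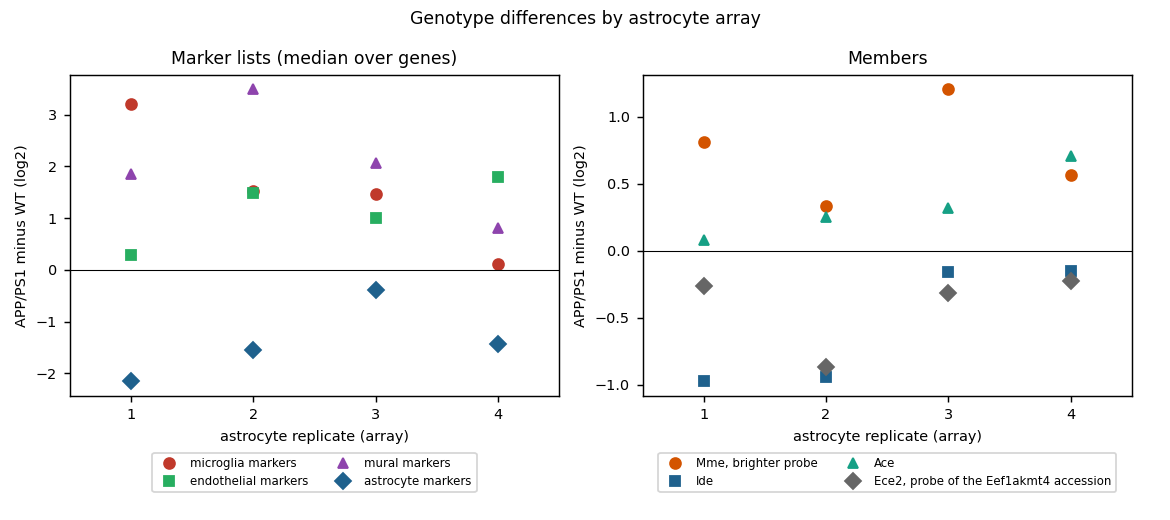
APP/PS1 minus WT differences (log2, y axis) on each astrocyte array (x axis, replicate number), as the median over genes of 4 marker lists (left) and for 4 member probes (right). Endothelial and mural markers lie above 0 and astrocyte markers below 0 on all 4 arrays, and Ide falls by 0.97 and 0.94 on replicates 1 and 2.

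In microglia, 0 of the 5 genes passed between APP/PS1 and WT in limma, while 19.7% of all genes did (4403 of 22395). At an unadjusted p under 0.05 there was 1 gene, Ece1, and at that looser threshold the share of all genes is at least 19.7%. The differences lay between 0.06 and 0.36, with a median of 0.10 beside -0.04 over all genes. By probe, 0 of 7 passed, against 19.2% of all probes. Again Ece1 alone had an unadjusted p under 0.05, which at least 19.2% of all probes also had.

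Ece1 had 4.71, 5.41 and 6.01 as lowest, median and highest in APP/PS1 microglia, and 4.25, 5.33 and 5.76 in WT microglia. The groups overlapped, but the APP/PS1 sample was higher on 7 of 7 arrays, by 0.08 to 0.87. Limma gave 0.36 ± 0.15 (95% interval 0.02 to 0.71), with an unadjusted p of 0.0407 and an adjusted p of 0.139. The exact two-sided sign-flip permutation test gave p = 0.0156, the smallest that 7 arrays allow and 1 of 14 such tests run on these probes. The difference was 0.41 on slide 1 and 0.25 on slide 2. The largest difference was on replicate 3, whose WT sample stood apart in granulocyte markers, and without it the value was 0.27 (adjusted p = 0.277). It passed in 1 of 23 alternatives, the fit without astrocyte replicate 4 (0.35, adjusted p = 0.0324).

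Mme had 2.78, 3.31 and 3.65 as lowest, median and highest in 6 APP/PS1 microglia, and 2.31, 3.53 and 4.25 in 6 WT microglia. APP/PS1 was higher on 3 of 6 arrays. The difference was 0.06 ± 0.20 (95% interval -0.40 to 0.51, limma adjusted p = 0.890). The sign turned without the dye term (-0.061), and 2 values from the levels near the dim end, those of replicates 2 and 7, were 0.97 and -0.94. The dimmer Mme probe, measured on 5 arrays, gave 0.24 ± 0.33 (adjusted p = 0.686).

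Ide had 8.01, 8.61 and 9.25 as lowest, median and highest in APP/PS1 microglia, and 7.89, 8.45 and 9.19 in WT microglia. Its difference was 0.08 ± 0.09 (95% interval -0.13 to 0.29, limma adjusted p = 0.643), with 5 of 7 arrays higher. It was -0.070 on the arrays of slide 2 alone. Ace had 6.99, 7.18 and 7.71 in APP/PS1 and 6.87, 7.25 and 7.45 in WT microglia, with a difference of 0.10 ± 0.07 (95% interval -0.06 to 0.26, adjusted p = 0.405).

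The Eef1akmt4-accession probe had 9.03, 9.36 and 9.61 as lowest, median and highest in APP/PS1 microglia, and 8.96, 9.26 and 9.37 in WT microglia. It was higher on 6 of 7 arrays, and its difference of 0.14 ± 0.09 did not pass in limma (adjusted p = 0.311). The Ece2-accession probe had 2.80, 3.96 and 4.46 in 6 APP/PS1 microglia and 3.74, 4.15 and 4.88 in 6 WT microglia. Its difference was -0.41 ± 0.26 (SE, limma adjusted p = 0.344), opposite in sign to the other probe.

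Marker lists also shifted in the microglia samples, where 19.7% of all genes passed. In APP/PS1, 7 of 14 astrocyte markers were lower and 1 higher (median -0.76), 7 of 12 neuron markers were lower (median -0.64), 6 of 8 perivascular macrophage and monocyte markers were lower (median -0.96), and 6 of 14 microglia markers were lower and 2 higher (median -0.42). The summed level (log2) of the astrocyte list was 13.11 to 13.84 in APP/PS1 and 13.94 to 14.61 in WT microglia, without overlap. That of the neuron list was 11.60 to 12.61 in APP/PS1 and 12.24 to 13.04 in WT, that of the perivascular list 12.63 to 12.92 in APP/PS1 and 13.05 to 14.78 in WT, and that of the microglia list 19.16 to 19.39 in APP/PS1 and 19.56 to 19.79 in WT. Endothelial markers were higher for 2 of 12 and lower for 0 (median 0.09). The summed level of the 10 measured on every microglia array was 13.81 to 14.45 in APP/PS1 and 12.37 to 13.76 in WT, without overlap. Among 9 oligodendrocyte markers 2 were higher (median 0.15), and among 10 mural markers 1 was higher (median 0.03). Choroid plexus, ependymal and fibroblast markers were higher for 1 of 10 (median -0.26), and 0 of 9 lymphocyte and granulocyte markers passed (median -0.83). The part of these shifts in the microglia differences given above and below was not tested.

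**Figure D4:**
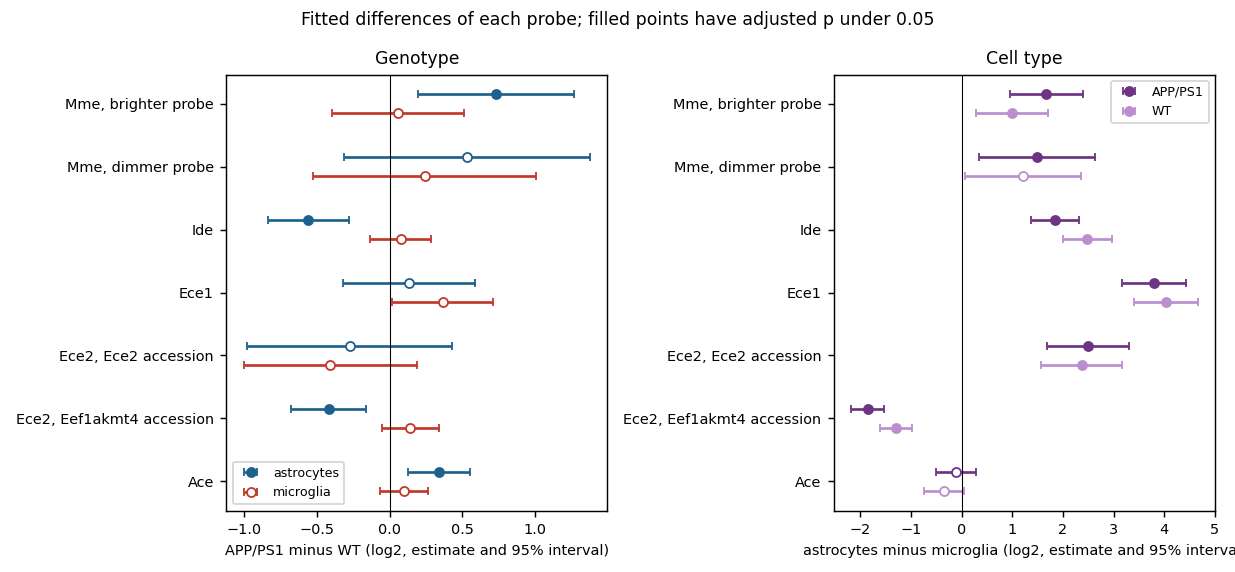
Fitted log2 differences (x axis, estimate and 95% interval) of the 7 probes: APP/PS1 minus WT in astrocytes and microglia (left), and astrocytes minus microglia in APP/PS1 and WT (right). Filled points have an adjusted p under 0.05 in limma over all probes: 4 probes in astrocytes and 0 in microglia for genotype.

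The genotype effect itself differed between the cell types for Ide, by -0.63 ± 0.15 (astrocytes minus microglia, limma adjusted p = 0.0137), and for the Eef1akmt4-accession probe, by -0.56 ± 0.14 (adjusted p = 0.0167). These are 2 of 5 genes, against 26.6% of all genes tested and 25.8% of all probes. For Mme the difference of effects was 0.68 ± 0.31 (95% interval -0.03 to 1.38, adjusted p = 0.147), for Ace 0.24 ± 0.12 (adjusted p = 0.174) and for Ece1 -0.23 ± 0.25 (adjusted p = 0.557). On matched arrays that of Ece1 was 0.11 and that of Mme 0.34 (adjusted p = 0.852 and 0.636). The call of Ide did not hold without astrocyte replicate 1 or 2 (adjusted p = 0.0537 and 0.0547), without the array block (0.374) or on matched arrays (0.0723). That of the Eef1akmt4-accession probe did not hold without the block (0.124) or on matched arrays (0.0625), and the Ece2-accession probe gave 0.13 ± 0.41 (adjusted p = 0.850).

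The list of other peptidases reported to cleave amyloid-beta, with the plasminogen activators, held 13 tested genes. In APP/PS1 microglia 5 of 13 rose and 2 fell, or 53.8% against 19.7% of all genes, with a median of 0.22 beside -0.04. The lysosomal cathepsin genes Ctsb and Ctsd rose by 1.21 ± 0.14 and 0.98 ± 0.18 (limma adjusted p = 0.000313 and 0.00529), and Pitrm1, a mitochondrial presequence peptidase of the M16 family, by 0.22 ± 0.06 (adjusted p = 0.0215). Mmp2, a secreted gelatinase gene, fell by 0.63 (SE 0.10, adjusted p = 0.00164). In APP/PS1 astrocytes 2 rose and 5 fell, or 53.8% against 33.4% of all genes, with a median of -0.26 beside -0.07. Plau and Plat, which encode the urokinase and tissue plasminogen activators, rose by 1.36 ± 0.25 and 1.15 ± 0.33 (adjusted p = 0.00238 and 0.0226), while Htra1, a secreted serine protease gene, fell by 1.48 (SE 0.29, adjusted p = 0.00354) and the membrane metalloproteinase gene Mmp14 by 0.75 (SE 0.12, adjusted p = 0.00104). Ctsb was lower in astrocytes by 0.63 (SE 0.19, adjusted p = 0.0261), and its difference of effects was -1.84 ± 0.23 (adjusted p = 0.000525).

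**Figure D5:**
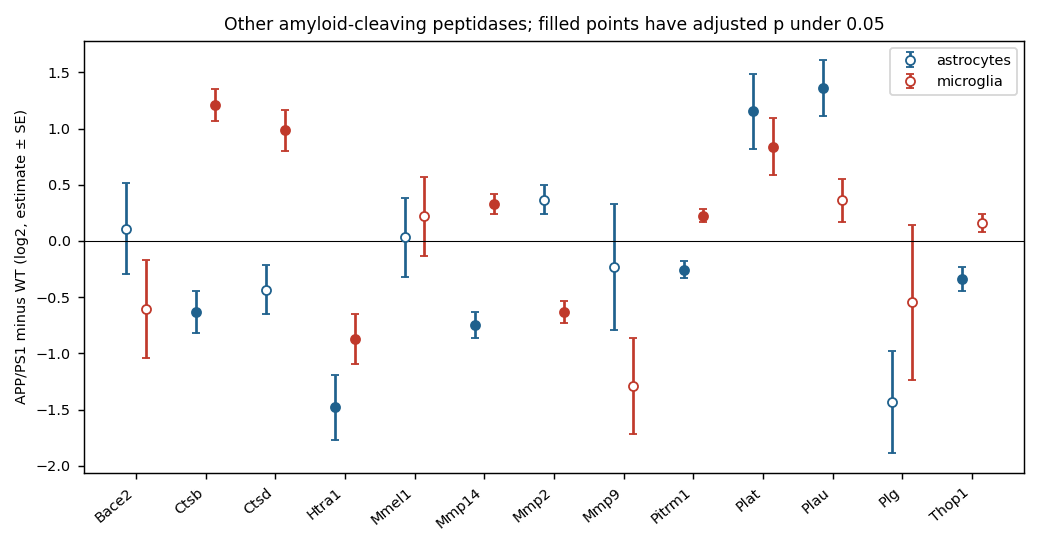
APP/PS1 minus WT differences (log2, y axis, estimate ± SE) of the 13 other amyloid-cleaving peptidases (x axis) in astrocytes and microglia. Filled points have an adjusted p under 0.05: 2 rose and 5 fell in astrocytes, and 5 rose and 2 fell in microglia.

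Genes of the same peptidase families and of the systems their substrates belong to were counted next, beside shares of all genes called of 19.7% in microglia and 33.4% in astrocytes. Of 4 M13 relatives, 0 passed in microglia in limma and also 0 at an unadjusted p under 0.05, which at least 19.7% of all genes had. In astrocytes 1 rose, Ecel1, an endoplasmic peptidase gene of neurons, by 0.64 ± 0.11 (limma adjusted p = 0.00146). Of 6 M16 and M2 relatives, Pitrm1 alone rose in microglia. In astrocytes 3 fell: Uqcrc2 by 0.46 and Uqcrc1 by 0.37, core subunits of respiratory complex III, and Pitrm1 by 0.26 (adjusted p = 0.00284, 0.0418 and 0.0248). Their median was -0.16 in astrocytes.

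Of 4 endothelin system genes, 2 rose and 1 fell in APP/PS1 astrocytes, or 75.0% against 33.4% of all genes. Edn1 and Edn3, endothelin precursors cleaved by endothelin-converting enzymes, rose by 1.67 ± 0.30 and 1.15 ± 0.28 (limma adjusted p = 0.00204 and 0.0203), and the receptor gene Ednrb fell by 0.96 (SE 0.17, adjusted p = 0.00236). In microglia 0 of 4 passed in limma, with 2 at an unadjusted p under 0.05, which at least 19.7% of all genes also had. Edn1 is also an endothelial gene. The part of the endothelial and other marker shifts of these astrocyte samples in the changes of Edn1, Edn3 and Ednrb was not tested.

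In the angiotensin and kinin system, 3 of 12 genes rose and 2 fell in APP/PS1 astrocytes, or 41.7%, near the 33.4% of all genes. Mas1, a receptor of the angiotensin (1-7) branch, rose by 1.11 ± 0.16, and the angiotensin II receptor gene Agtr1b by 1.39 ± 0.15 (limma adjusted p = 0.00108 and 0.00576). Agt, the angiotensin precursor gene made by astrocytes, fell by 0.62 (SE 0.16), and Atp6ap2, the prorenin receptor gene, by 0.34 (SE 0.09, adjusted p = 0.0124 and 0.0163). In microglia 0 of 11 rose and 2 fell (18.2% against 19.7% of all genes), Mas1 by 0.67 (SE 0.14) and the kininogen gene Kng1 by 0.92 (SE 0.25, adjusted p = 0.0097 and 0.0307). Agtr1b had no microglia value in the fit.

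Of 10 genes around insulin and the other hormone substrates of Ide, 2 rose in APP/PS1 microglia (20.0% against 19.7% of all genes), the growth factor gene Igf1 by 1.09 ± 0.11 and its receptor gene Igf1r by 0.38 ± 0.11 (limma adjusted p = 0.00011 and 0.044). In astrocytes, where 20.0% were called against 33.4%, Igf1r rose by 0.70 ± 0.15 and Ins2 fell by 0.28 (SE 0.08, adjusted p = 0.00556 and 0.0237). Of the neuropeptide genes linked to Mme, 2 of 17 rose in microglia and 0 fell (11.8% against 19.7% of all genes), Cck (cholecystokinin) by 1.72 ± 0.12 and Adm (adrenomedullin) by 1.79 ± 0.18 (adjusted p = 1.15e-05 and 0.000144). In astrocytes 3 of 18 rose and 2 fell (27.8% against 33.4% of all genes), among them Cck (1.36 ± 0.15), Npr1 (1.36 ± 0.34) and Nts (0.70 ± 0.22), with Npr2 lower by 0.52 (SE 0.09). Npr1 and Npr2 encode natriuretic peptide receptors and Nts neurotensin.

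Of the 13 calls of listed genes in microglia, 7 passed in every fit that left out 1 array: Ctsb, Ctsd, Mmp2, Mas1, Igf1, Cck and Adm. The call of Pitrm1 did not hold without microglia replicate 2, 4 or 6 (adjusted p up to 0.0711), that of Kng1 without 2, 4, 6 or 7 (up to 0.0881), and that of Igf1r without any 1 of microglia replicates 1 to 4, 6 and 7 or astrocyte replicate 4 (up to 0.120). Of the 25 such calls in astrocytes, 12 passed in every fit of this kind: Ecel1, Uqcrc2, Mmp14, Plau, Htra1, Mas1, Agtr1b, Edn1, Ednrb, Igf1r, Cck and Npr2. Among the named genes, the calls of Pitrm1 (astrocyte replicates 3 and 4), Plat and Edn3 (2, 3 and 4), Ctsb and Atp6ap2 (1, 2 and 4), Agt and Ins2 (1 and 2) and Npr1 (1 to 4) did not hold when any 1 of the replicates in brackets was left out. The adjusted p then reached 0.107 for Pitrm1, 0.101 for Plat, 0.0961 for Edn3, 0.129 for Ctsb, 0.0796 for Atp6ap2, 0.0687 for Agt, 0.107 for Ins2 and 0.159 for Npr1. Uqcrc1 and Nts did not hold without arrays of either cell type, astrocyte replicates 1, 2 and 4 and microglia replicates 1, 2, 6 and 7 for Uqcrc1 (adjusted p up to 0.163) and astrocyte replicates 1 to 4 and microglia replicates 1, 3 and 6 for Nts (up to 0.167). Without the array block 5 of the 13 microglia calls and 3 of the 25 astrocyte calls passed, and with astrocytes fitted alone 8 of the 25 did. On the arrays matched in Eif2s3y, 9 of the 13 microglia calls and 14 of the 25 astrocyte calls passed. Among the calls named above, those that did not were Pitrm1 (0.24, adjusted p = 0.0604) and Igf1r (0.36, adjusted p = 0.0736) in microglia. In astrocytes they were Plau (1.00, adjusted p = 0.105), Plat (1.35, 0.118), Agt (-0.71, 0.0928), Agtr1b (1.54, 0.0870), Npr1 (1.81, 0.0721), Nts (0.53, 0.362), Ins2 (-0.32, 0.107), Uqcrc1 (-0.51, 0.0861) and Pitrm1 (-0.30, 0.120), with the adjusted p second in brackets. Plau and Agtr1b are thus among the 12 that passed without any 1 array and not among those that passed on matched arrays.

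The genes whose levels followed a member most closely were taken among genes measured in all samples of a cell type and above its median level. Over the 14 microglia samples these were Acadsb (Pearson r = 0.99), Cnpy4 and Fam120a for Ide, Prkcsh (0.97), Dipk2a and Slf2 for Ece1, and Th (0.90), Lonp1 and Gm6557 for Ace. Mme and the Ece2-accession probe had blanks in microglia and were not ranked. Over the 8 astrocyte samples they were Tpst2 (0.98), Cgrrf1 and Zbtb5 for Ide, Hmgb2 (0.98), Vwa5a and Pdpk1 for Mme, Snx9 (0.95), Gm11564 and Pik3r3 for Ece1, and Zfp764 (0.96), Gstp2 and Mthfsl for Ace. For the probes annotated as Ece2, Tomm5 (0.98) was most like the Eef1akmt4-accession probe and Helb (0.99) the Ece2-accession probe in astrocytes. These are the highest values of 8185 genes in microglia and 10965 in astrocytes, over samples that share arrays and, in microglia, slides that differed in the levels of Ide and Ece1.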

How the data were processed

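The values used are single-channel log2 intensities of 22 samples on 11 arrays, deposited by the authors in 1 table; per the submitters' processing notes limma was used, without a version, and how background was corrected and arrays were normalized is not stated in the labels used. Probe symbols, gene identifiers and accessions came from the platform annotation, and names, loci and promoter windows from RefSeq (GRCm38.p6); the accessions of 28708 probes matched, and 33 symbols differed. Of 43020 probes 9994 had no symbol and were not used.

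Genotype effects were fitted with limma 3.58.1 (R 4.3.3) in 1 model of 22 samples that held a term per array, a dye term and a genotype term per cell type, so that astrocytes and microglia shared the estimate of spread. Blank values leave an array out of a gene's fit. For the cell type difference the model held the means of 4 groups and dye, with the correlation within arrays estimated by duplicateCorrelation (statmod 1.5.0). P-values were two-sided and adjusted by Benjamini-Hochberg over all genes (or all probes), with a threshold of 0.05. Single differences had an exact sign-flip permutation test (Python 3.11.15, numpy 2.4.6). The fits were tested on simulated data with 1 spread per gene for both cell types, so that test cannot judge the shared spread. The pairing comes from the labels, by which samples of the same number share an array; deviations of such samples correlated across genes at 0.37 to 0.63 in microglia and -0.00 to 0.33 in astrocytes. Nothing in the labels beyond the words on biological replicates says how many animals gave a sample.

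Members, gene lists and alternatives were chosen with earlier results of these data known. Named from each list were up to 4 genes with the smallest adjusted p past 0.05, the 2 brightest markers where a list is described, and the 3 genes most like a member; S100a8, Eif2s3y and Itgam were chosen after their values were seen. Alternatives were no array block, a random block by array or slide, quantile normalization, no term for dye, only brighter or fully measured genes, the mean of probes, each cell type or slide alone and leaving out each array; matched Eif2s3y arrays and names by accession were added after seeing the data.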

Additional observations from a re-analysis of the deposited data

Results flagged for a closer look

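Of 42 sets of 4 to 7 values examined for a sample far from the others (the levels of 7 probes in 4 groups and their within-array differences in both cell types), 3 held one, and chance alone flags about 1 in 20. The WT astrocyte sample of replicate 3 had an Mme level of 3.82, below the 4.43 to 4.48 of the other 3. The dimmer Mme probe had a difference of -0.68 on the array of astrocyte replicate 4, against 0.88 to 1.05 on the other arrays. The Eef1akmt4-accession probe of Ece2 had a difference of -0.87 on the array of astrocyte replicate 2, against -0.31 to -0.23 on the other arrays.

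The genotype effects of 2 genes differed between the cell types in the test of the difference itself: -0.63 ± 0.15 for Ide (limma adjusted p = 0.0137) and -0.56 ± 0.14 for the Ece2 symbol through its Eef1akmt4-accession probe (adjusted p = 0.0167), astrocytes minus microglia.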

How the results depend on the processing

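Among 592 comparisons of a result with an alternative, 528 kept their direction and their side of the threshold (or, for a count of genes, stayed within 1.5 times). Array as a random block and the filters on brighter or fully measured genes changed no call of the 5 genes. The filters on brightness and on complete values gave no value for Mme. Quantile normalization changed no call either, but the deposited columns already shared their highest value (17.89) and had medians of 6.24 to 6.26. It could therefore change little. The higher Ece1 and Ide in astrocytes passed in all 18 alternatives in either genotype, none of which can separate cell type from slide. The calls of listed genes that are not among the 5 kept their direction in all alternatives that gave them a value. The causes of the changes below were not tested.

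Without the replicate block, which drops the array pairing, the genes past the threshold numbered 1184 (microglia), 2447 (astrocytes) and 1491 (difference of effects), against 4403, 7516 and 5952 with it. The astrocyte differences were then Mme 0.73, Ide -0.56, Ece2 -0.42 and Ace 0.34, and the differences of effects Ide -0.63 and Ece2 -0.56, none of them past the threshold. With slide as a random block 6910 genes differed between the cell types in APP/PS1 and 7389 in WT, and Mme (1.67 and 1.00) did not pass. Without the dye term Mme was -0.061 in microglia and 0.73 in astrocytes, not past the threshold. With the mean of probes, Ece2 was -0.13 in microglia and -0.35 in astrocytes, its difference of effects -0.22 and its cell type difference -0.045 in APP/PS1 and 0.18 in WT, and Mme was 0.63 in astrocytes, none past the threshold. Astrocytes fitted alone, with fewer samples, gave 2820 genes and none of Mme 0.73, Ide -0.56, Ece2 -0.42 and Ace 0.34. Slide 1 alone gave 873 genes in microglia, and slide 2 alone, with 3 arrays, 0 in limma (5486 at an unadjusted p under 0.05), with Mme at -0.26, Ide at -0.070 and Ace at -0.0056.

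On arrays matched in Eif2s3y, 4447 genes passed in astrocytes and 3864 for the difference of effects. Mme (0.45), Ide (-0.55) and Ece2 (-0.55) in astrocytes and the differences of effects of Ide (-0.64) and Ece2 (-0.68) did not pass, and that of Ece1 was 0.11. With names by accession, Ece2 was -0.41 in microglia and -0.27 in astrocytes, its difference of effects 0.13 and its cell type difference 2.50 in APP/PS1 and 2.37 in WT.

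Leaving out each array in turn gave 3300 to 4618 genes in microglia, 5513 to 7528 in astrocytes, 4396 to 5945 whose effects differed, 10946 to 12458 between cell types in APP/PS1 and 10984 to 12319 in WT. In astrocytes Mme ranged from 0.56 to 0.93, Ece1 from -0.18 to 0.31, Ece2 from -0.48 to -0.25 and Ace from 0.23 to 0.40. In microglia Mme ranged from -0.13 to 0.17 and Ece1 from 0.27 to 0.42. The difference of effects of Ide ranged from -0.72 to -0.54. Between cell types Ace ranged from -0.27 to 0.072 in APP/PS1 and -0.58 to -0.21 in WT, and Mme from 0.78 to 1.14 in WT.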

Other observations

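S100a8, a calcium-binding protein gene of neutrophils, had a median of 8.65 in the 7 APP/PS1 microglia samples and 16.47 in the WT microglia sample of replicate 3. The other 6 WT microglia samples had 8.82 to 10.07, and no APP/PS1 microglia sample was above the highest of them.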
